A study of Mus musculus with 8 samples.

Results

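The transcripts described here are those of 8 mouse genes of cholesterol synthesis and its control: Srebf2, Insig1, Hmgcs1, Idi1, Fdps, Fdft1, Sqle and Dhcr7. They were taken by matching the Ensembl gene IDs of the deposited table to these symbols, and all 8 were found, each by 1 ID, among 35596 genes. The 8 make cholesterol or control its synthesis, and genes of uptake and transport are described with the rest of the pathway. The table holds RNA sequencing of polyadenylated RNA from hand-picked pancreatic islets of C57BL/6J males, an inbred mouse line in wide use. The weight-cycled group, 4 libraries, came from mice on a 60% fat diet in the first 9 weeks, a 10% fat diet in the next 9 and the 60% diet once more in the last 9. The obese group, 4 libraries, came from mice given the 10% fat diet for 9 weeks and then the 60% diet for 18 weeks. Total time on each diet was equal, so the comparison asks how islets differ with the order of the diets, and the last unbroken high-fat period, 9 against 18 weeks, differs with it and cannot be told apart from it. No group on low-fat diet alone is analysed here, and no label states that each library is a different mouse. The p-values therefore rest on the variation among these libraries alone, part or all of which may be technical.

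Cells make cholesterol from acetyl-CoA through mevalonate, isoprenoid units, squalene and lanosterol. Srebf2 encodes SREBP2, a membrane-bound transcription factor that is carried by Scap to the Golgi, cut by the site-1 and site-2 proteases and released to the nucleus when membrane sterol is low, where it switches on most genes of the pathway and its own gene. INSIG1 holds the SREBP2 carrier back in the endoplasmic reticulum when sterol is plentiful, and Insig1 is itself an SREBP target. In beta cells, cholesterol is a component of the secretory granule and plasma membranes.

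Values are TPM, a gene's transcript abundance per length relative to its library's total, so they can be compared between genes. They keep no record of sequencing depth, and no counting interval can be given. The 7 endocrine markers Ins1, Ins2, Iapp, Gcg, Sst, Ppy and Chga summed to 80.2% to 82.7% of TPM in weight-cycled and 81.1% to 82.1% in obese islets, and 0 of the 7 passed the test below. The 8 sterol genes together summed to 58.6 to 95.5 TPM in weight-cycled and 75.1 to 96.0 TPM in obese libraries. In whole islets, fewer cells of a type and less RNA per cell cannot be told apart. Weight-cycled replicate 1 stood among the obese libraries on the first principal component of all tested genes, at -7.98. The other weight-cycled libraries lay at 13.8 to 30.6 and obese libraries at -23.3 to -5.03. Results that depend on weight-cycled replicate 1 are therefore given without it as well. It was singled out by these same values, so a call made without it is no independent support for a difference. In the test below, 57.8% of all genes passed without weight-cycled replicate 1, against 25.2% with all libraries.

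Sequence upstream of the RefSeq start, on GRCm38.p6, is shown for 3 members. These are Srebf2, the member that passed the test below on TPM, its antagonist Insig1, and Hmgcs1, which had a match to the core of the sterol regulatory element. Each sequence is 250 bases, 5′ to 3′ on the plus strand, and capitals mark CCAAT (the NF-Y box), GGGCGG (the Sp1 box) and TCACNCCAC (the core of that element) on either strand.
Srebf2, chr15:82147019-82147268: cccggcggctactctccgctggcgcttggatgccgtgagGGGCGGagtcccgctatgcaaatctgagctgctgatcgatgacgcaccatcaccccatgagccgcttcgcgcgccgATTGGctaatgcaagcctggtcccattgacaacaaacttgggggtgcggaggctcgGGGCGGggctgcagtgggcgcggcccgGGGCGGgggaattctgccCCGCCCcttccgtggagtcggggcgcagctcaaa
Insig1, chr5:28071162-28071411: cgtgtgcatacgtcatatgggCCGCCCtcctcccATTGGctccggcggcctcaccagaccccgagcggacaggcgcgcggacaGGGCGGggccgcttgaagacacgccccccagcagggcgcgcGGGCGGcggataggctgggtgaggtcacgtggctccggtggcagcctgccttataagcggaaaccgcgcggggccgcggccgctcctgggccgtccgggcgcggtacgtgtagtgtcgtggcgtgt
Hmgcs1, chr13:119690101-119690350: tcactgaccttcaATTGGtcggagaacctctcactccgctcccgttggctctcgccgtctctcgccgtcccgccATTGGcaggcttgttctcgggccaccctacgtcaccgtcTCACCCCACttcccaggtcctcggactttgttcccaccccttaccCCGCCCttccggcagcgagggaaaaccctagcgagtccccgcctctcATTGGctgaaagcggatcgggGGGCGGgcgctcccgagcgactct
Hmgcs1 held TCACCCCAC 137 bases before its start, and no other window of a member held TCACNCCAC. Matches in the 50 bases after a start are counted but not printed. Windows of 250 bases before to 50 bases after a start were found for 5 of the 8 members, Srebf2, Insig1, Hmgcs1, Idi1 and Dhcr7, and all 5 had a CCAAT and a GGGCGG on either strand in at least 1 window. Over all 32851 RefSeq promoter windows of mouse, 1.24% held TCACNCCAC, 37.4% CCAAT and 35.7% GGGCGG, and of the 30 other pathway genes with a window 0 held TCACNCCAC. No motif in the members' windows overlapped another. A match describes letters in a window and is no evidence of binding.

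On TPM, Srebf2 transcripts were lower in weight-cycled than in obese islets, while the 7 other members, which include enzymes of the pathway and Insig1, did not pass the test in either direction. Differences were tested with limma on log2(TPM + 1) over the 8127 genes with a mean of at least 1 TPM, and all 8 members were above that level. Of the 8, 1 was called lower and 0 higher at a Benjamini-Hochberg adjusted p under 0.05, where 23.9% of all genes tested were called lower and 1.21% higher, 25.2% in either direction. At an unadjusted limma p under 0.05 the count was also 1 of 8, against 49.1% of all genes. The median log2 fold change was -0.12 over the members and -0.26 over all genes tested. Because most genes lay below 0 on TPM, values are also given after median-of-ratios scaling, which divides each library by the median ratio of its genes to their means and moved the median of all genes to -0.01. After scaling, 0 members passed (3 at an unadjusted limma p under 0.05, Srebf2 below 0 and Insig1 and Idi1 above 0, against 30.4% of all genes), and their median was 0.12.

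**Figure D1:**
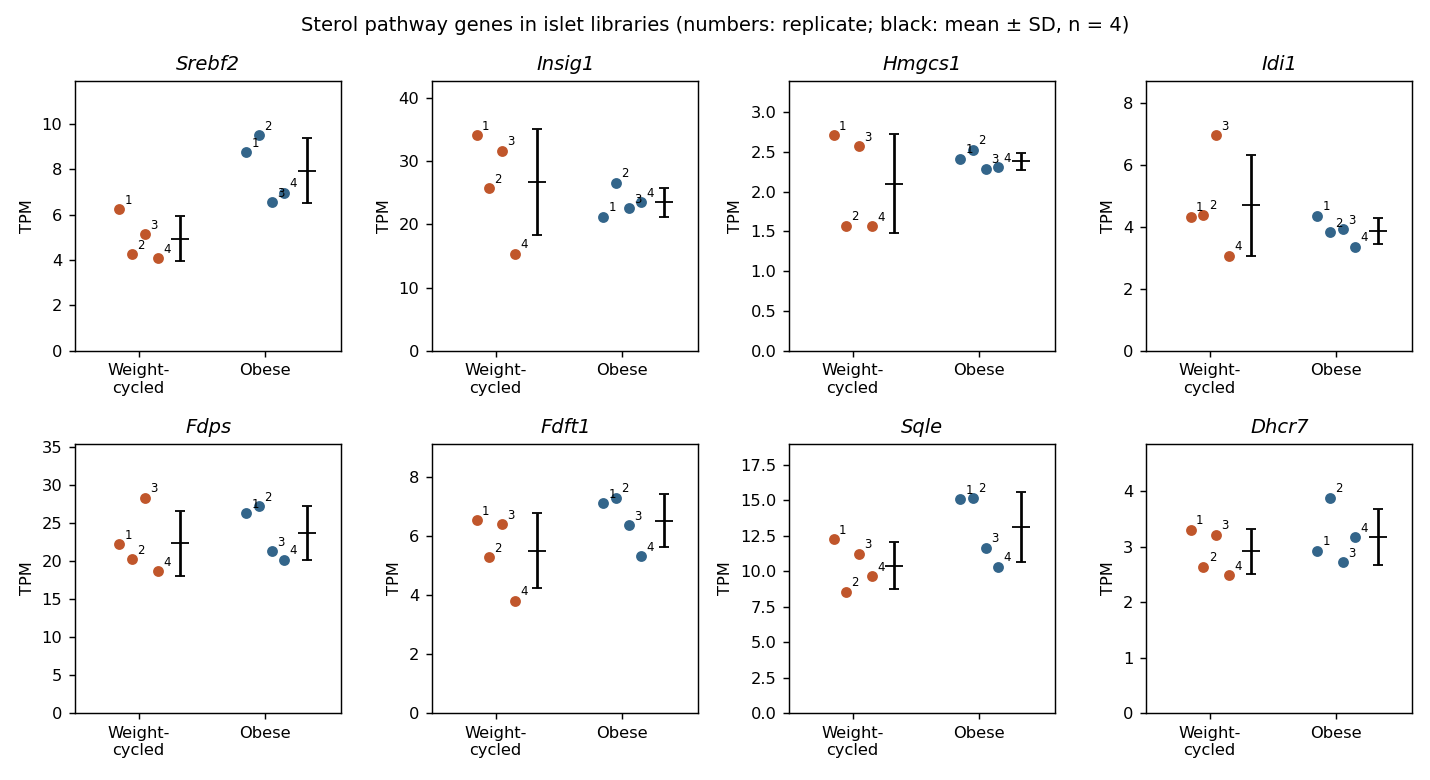
TPM of the 8 sterol genes in each library, with weight-cycled islets on the left and obese islets on the right of each panel, numbers giving the replicate and black marks the mean ± SD (n = 4). Srebf2 lay between 4.09 and 6.25 TPM in weight-cycled and between 6.55 and 9.52 TPM in obese libraries, and the groups of the other 7 genes overlapped.

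Srebf2 (ENSMUSG00000022463.8, chromosome 15, 82147181 to 82205379, build mm10) had 6.25, 4.26, 5.14 and 4.09 TPM in weight-cycled replicates 1 to 4, against 8.75, 9.52, 6.55 and 6.96 TPM in obese replicates 1 to 4. Every weight-cycled library was below every obese one, which was so in either direction for 22.4% of all genes tested. Means were 4.93 ± 0.993 TPM in weight-cycled and 7.95 ± 1.42 TPM in obese islets (SD, n = 4 each). On log2(TPM + 1) the difference was -0.59 (SE 0.145, 95% interval -0.91 to -0.28, limma adjusted p = 0.0334), lower than that of all but 4.64% of tested genes. Relative to the median of all genes it was -0.34. After median-of-ratios scaling the libraries still did not overlap, as in 14.6% of genes tested, and the difference was -0.31 on the log2 scale (SE 0.0920, limma adjusted p = 0.0832), with 1.81% of all genes called in either direction. With each library's trend with transcript length removed it was -0.31 (limma adjusted p = 0.0700), and 3.31% of all genes were called.
Leaving out obese replicate 1, 2 or 3, or weight-cycled replicate 2, 3 or 4, ended the call on TPM, with a limma adjusted p of 0.0664 to 0.109. The log2 fold change stayed at -0.67 to -0.51 in these fits, in which 0 to 49 genes in all were called lower (33.3% to 42.8% of genes at an unadjusted limma p under 0.05). Leaving out obese replicate 4 gave a limma adjusted p of 0.0422, where 20.6% of all genes were called lower. Leaving out weight-cycled replicate 1 gave 0.00142, where 54.4% of all genes were called lower. With that last library left out Srebf2 was called after scaling too, at -0.35 (limma adjusted p = 0.0187). In that scaled fit 17.9% of all genes were called lower.

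Insig1 (ENSMUSG00000045294.11, chromosome 5, 28071363 to 28078662), the sterol-dependent retention factor, had 34.2, 25.7, 31.6 and 15.3 TPM in weight-cycled replicates 1 to 4. In obese replicates 1 to 4 it had 21.2, 26.6, 22.6 and 23.5 TPM. The obese libraries lay close together. On TPM, weight-cycled replicates 1 and 3 lay above all of them, replicate 2 among them and replicate 4 below all of them. The log2 fold change was 0.12 (95% interval -0.31 to 0.56, limma adjusted p = 0.619). After scaling it was 0.44 (95% interval 0.03 to 0.86, limma adjusted p = 0.149), a difference that did not pass. Scaled values were 32.49, 32.79, 34.85 and 18.17 in weight-cycled replicates 1 to 4, against 17.44, 22.42, 20.94 and 23.13 in obese replicates 1 to 4. Only weight-cycled replicate 4 thus lay among the obese libraries. Without it the scaled log2 fold change was 0.66 (limma adjusted p = 0.0565), in a fit where 0 genes were called. The coefficient of variation between libraries was 31.3% in weight-cycled and 9.72% in obese islets.

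Among the mevalonate and isoprenoid steps, Hmgcs1 (ENSMUSG00000093930.2, chromosome 13, 119690379 to 119708260) encodes the synthase that makes HMG-CoA. It had 2.71, 1.57, 2.57 and 1.57 TPM in weight-cycled replicates 1 to 4, against 2.41, 2.53, 2.29 and 2.31 TPM in obese replicates 1 to 4. Weight-cycled replicates 1 and 3 lay above all obese libraries and replicates 2 and 4 below all of them. The log2 fold change was -0.15 (95% interval -0.45 to 0.16, limma adjusted p = 0.403).
Idi1 (ENSMUSG00000058258.14, chromosome 13, 8885501 to 8892451) encodes the isomerase of isopentenyl diphosphate. Its levels were 4.33, 4.40, 6.97 and 3.07 TPM in weight-cycled replicates 1 to 4 and 4.36, 3.82, 3.92 and 3.36 TPM in obese replicates 1 to 4. Weight-cycled replicate 3 stood above the rest, and the groups overlapped. Its log2 fold change of 0.19 (95% interval -0.19 to 0.57, limma adjusted p = 0.384) did not pass. After median-of-ratios scaling all 4 weight-cycled libraries were above all 4 obese ones, at 3.64 to 7.68 scaled TPM in weight-cycled and 3.22 to 3.64 in obese islets, but the nearest libraries were at 3.642 in weight-cycled and 3.635 in obese islets. The scaled log2 fold change was 0.45 (SE 0.168, limma adjusted p = 0.116), and without weight-cycled replicate 1 it was called at 0.54 (limma adjusted p = 0.0358). In that scaled fit 20% of all genes were called higher. Without weight-cycled replicate 3, the highest library, the log2 fold change was 0.29 after scaling and 0.012 on TPM (limma adjusted p = 0.189 and 0.951).
Fdps (ENSMUSG00000059743.12, chromosome 3, 89093588 to 89101959) encodes farnesyl diphosphate synthase, at the branch to sterols and prenyl groups. Weight-cycled replicates 1 to 4 had 22.2, 20.2, 28.3 and 18.6 TPM and obese replicates 1 to 4 had 26.3, 27.2, 21.3 and 20.2 TPM. The highest and the lowest of the 8 libraries were both weight-cycled. The log2 fold change was -0.09 (95% interval -0.39 to 0.21, limma adjusted p = 0.609), and 0.23 after scaling (limma adjusted p = 0.222).

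Of the squalene and later steps, Fdft1 (ENSMUSG00000021273.10, chromosome 14, 63145150 to 63179578), the squalene synthase gene, had 6.53, 5.29, 6.40 and 3.81 TPM in weight-cycled replicates 1 to 4. In obese replicates 1 to 4 it had 7.12, 7.30, 6.37 and 5.32 TPM. The groups overlapped, with weight-cycled replicate 4 the lowest (log2 fold change -0.22, 95% interval -0.55 to 0.11, limma adjusted p = 0.241). Its annotated span shares 774 bases with Ctsb on the other strand, at a mean of 49.4 TPM, and whether reads were assigned by strand is not given in the sources used here, so its values are uncertain.
Sqle (ENSMUSG00000022351.14, chromosome 15, 59315077 to 59331192) encodes squalene epoxidase, an enzyme that limits the rate of the later steps. It had 12.3, 8.57, 11.3 and 9.65 TPM in weight-cycled replicates 1 to 4, against 15.1, 15.2, 11.7 and 10.3 TPM in obese replicates 1 to 4. Obese replicates 1 and 2 were above all weight-cycled libraries and obese replicates 3 and 4 among them. Its log2 fold change was -0.29 (95% interval -0.60 to 0.02, limma adjusted p = 0.118). It was called without weight-cycled replicate 1, at -0.37 (limma adjusted p = 0.0352), where 54.4% of all genes were called lower. Sqle lay at 0.01 after scaling and at 0.01 with both changes (limma adjusted p = 0.938 and 0.957).
Dhcr7 (ENSMUSG00000058454.15, chromosome 7, 143823145 to 143848410) encodes the reductase that makes cholesterol from 7-dehydrocholesterol. Its levels were 3.31, 2.64, 3.22 and 2.49 TPM in weight-cycled replicates 1 to 4 and 2.93, 3.89, 2.72 and 3.17 TPM in obese replicates 1 to 4. The groups overlapped throughout, with a log2 fold change of -0.09 (95% interval -0.36 to 0.17, limma adjusted p = 0.547).

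By mean level in weight-cycled islets the order was Insig1 at 26.7 ± 8.37, Fdps at 22.3 ± 4.24, Sqle at 10.4 ± 1.64, Fdft1 at 5.51 ± 1.26, Srebf2 at 4.93 ± 0.993, Idi1 at 4.69 ± 1.64, Dhcr7 at 2.92 ± 0.409 and Hmgcs1 at 2.10 ± 0.621 TPM (SD, n = 4). In obese islets it was Fdps at 23.7 ± 3.51, Insig1 at 23.5 ± 2.28, Sqle at 13.1 ± 2.45, Srebf2 at 7.95 ± 1.42, Fdft1 at 6.52 ± 0.901, Idi1 at 3.86 ± 0.414, Dhcr7 at 3.18 ± 0.506 and Hmgcs1 at 2.38 ± 0.109 TPM. In weight-cycled islets Fdps lay above Sqle and Sqle above Fdft1 with no overlap of libraries, and the other neighbours overlapped. In obese islets the neighbours that overlapped were Fdps and Insig1, Srebf2 and Fdft1, and Idi1 and Dhcr7. The levels of Srebf2, Fdft1 and Idi1 thus overlapped one another in weight-cycled islets, while in obese islets all libraries had more Srebf2 and more Fdft1 than Idi1.

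Ratios of 2 genes within a library are not changed by a factor that multiplies the whole library, as in median-of-ratios scaling. They can still hold a library's trend with transcript length, which was not removed from them. Median transcript lengths were 741 bases for Idi1, 893 for Fdps, 2394 for Srebf2 and 3279 for Fdft1. With that trend removed, single-gene log2 fold changes were 0.33 for Idi1, 0.06 for Fdps, -0.31 for Srebf2 and 0.10 for Fdft1. The log2 ratio of Srebf2 to Insig1 was -2.45, -2.60, -2.62 and -1.91 in weight-cycled replicates 1 to 4, against -1.28, -1.48, -1.79 and -1.76 in obese replicates 1 to 4. All weight-cycled libraries were below all obese ones, with a mean difference of -0.82. The ratio of Srebf2 to Idi1 averaged 0.11 ± 0.445 in weight-cycled and 1.03 ± 0.236 in obese libraries, and that of Srebf2 to Fdps -2.18 ± 0.263 in weight-cycled and -1.58 ± 0.0832 in obese libraries (SD, n = 4 each). Against Hmgcs1, Sqle and Dhcr7 the differences were -0.46, -0.37 and -0.57, also without overlap, and against Fdft1 the groups overlapped at a difference of -0.43. Srebf2 was thus lower without overlap against 6 of the 7 other members, where it was so against 24.9% of all tested genes above 0 in every library. The ratios share Srebf2 and are not independent, and they were chosen after the values were seen.
Of all 28 pairs among the members, 7 did not overlap, the seventh being Idi1 to Fdft1 at -0.59 to 0.12 in weight-cycled and -0.93 to -0.66 in obese libraries. Idi1 was higher in this way against 29.7% of all tested genes. Each of the 7 had a two-sided exact permutation p of 0.0286, the smallest that 70 assignments of 4 against 4 libraries allow, and 0.114 after Benjamini-Hochberg adjustment over the 28, so 0 passed after adjustment. Ratios show unequal change and not which of the genes changed.

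**Figure D2:**
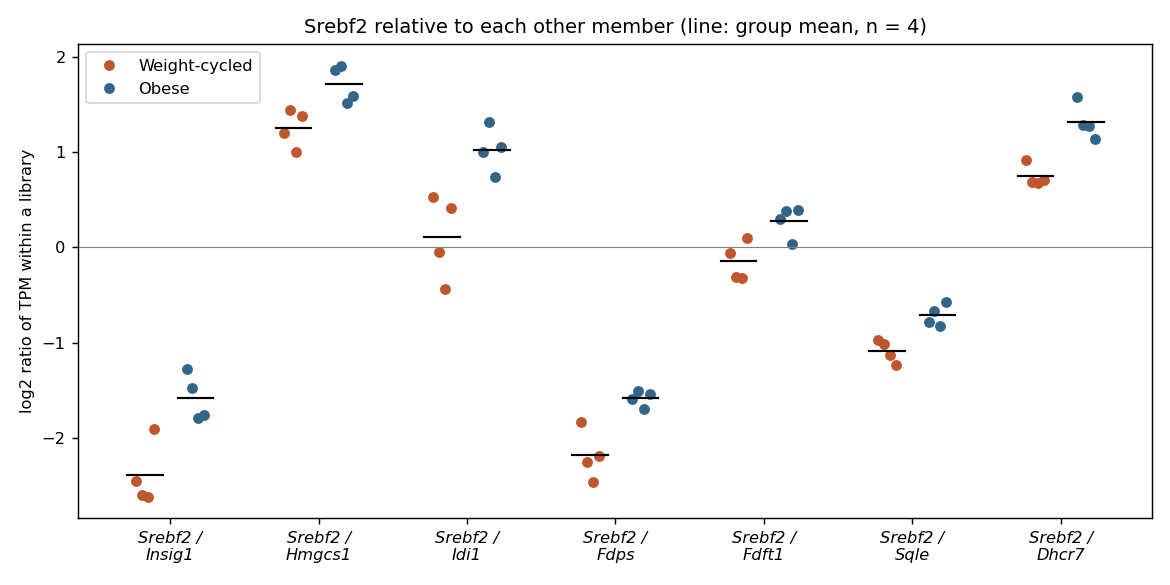
The log2 ratio of Srebf2 to each other member within a library, with weight-cycled libraries to the left of obese ones, points for libraries and lines for group means (n = 4). Weight-cycled libraries lay below all obese libraries for 6 of the 7 ratios, with overlap for Srebf2 to Fdft1.

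The rest of the sterol pathway was described by 36 textbook genes, of which 30 reached a mean of 1 TPM. Of these 30, 4 were lower, 0 higher and 26 did not pass, with a median log2 fold change of -0.20, where 23.9% of all genes were lower with a median of -0.26. The 4 were Mbtps1, Nr1h2, Abca1 and Apoe. After median-of-ratios scaling 1 was lower, Apoe, and the list's median was 0.01. The 6 genes below the filter were Hsd17b7, Mylip, Vldlr, Abcg4, Cyp27a1 and Cyp46a1. With weight-cycled replicate 1 left out 14 of the list were lower, where 54.4% of all genes in that fit were. With obese replicate 4 left out 3 of the list and 20.6% of all genes were lower. With obese replicate 3 or weight-cycled replicate 3 left out it was 1 of the list and 0.31% or 0.597% of all genes. With any of the other 4 libraries left out it was 0 of the list and at most 0.352% of all genes.

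The 5 mevalonate genes beyond the members, Acat2, Mvk, Pmvk, Mvd and Ggps1, lay at -0.35 to -0.01 and did not pass. Ggps1, the gene of geranylgeranyl diphosphate synthase, which uses the product of Fdps, had the smallest p of them. It had 4.13, 2.76, 3.14 and 3.90 TPM in weight-cycled replicates 1 to 4, against 4.97, 4.61, 5.43 and 3.84 TPM in obese replicates 1 to 4. The groups overlapped through obese replicate 4, and the log2 fold change was -0.35 (95% interval -0.64 to -0.07, limma adjusted p = 0.0612). It was called without obese replicate 4 (-0.43, limma adjusted p = 0.0490) or weight-cycled replicate 1 (-0.42, limma adjusted p = 0.0129). In those fits, in that order, 20.6% and 54.4% of all genes were called lower. Ggps1 lay at -0.09 after scaling (limma adjusted p = 0.565).
Of 8 tested genes of the squalene and later steps, 0 passed, at -0.21 to 0.10, and 0 lay below the median of all genes. Nsdhl, with the smallest p of them, was at -0.21 (limma adjusted p = 0.214).

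Among regulators, Mbtps1, the site-1 protease gene whose product makes the first cut in SREBP2, had 5.87, 3.08, 3.91 and 3.36 TPM in weight-cycled replicates 1 to 4, against 6.64, 7.17, 6.13 and 5.59 TPM in obese replicates 1 to 4. Weight-cycled replicate 1 lay among the obese libraries and the other 3 below them (log2 fold change -0.57, SE 0.155, limma adjusted p = 0.0353). Nr1h2, the gene of the oxysterol receptor LXR beta, was at -0.54 (limma adjusted p = 0.0435). The call of Nr1h2 held without weight-cycled replicate 1 (-0.71, limma adjusted p = 0.000996) and was lost without any other single library (0.0581 to 0.126). That of Mbtps1 held without weight-cycled replicate 1 or obese replicate 4 and was lost otherwise (0.0673 to 0.109). Of all genes, 54.4% were called lower without weight-cycled replicate 1 and 20.6% without obese replicate 4. After scaling neither passed, with Mbtps1 at -0.30 (limma adjusted p = 0.0965) and Nr1h2 at -0.31 (limma adjusted p = 0.131). With the length trend removed Mbtps1 was at -0.21 and Nr1h2 at -0.35 (limma adjusted p = 0.105 and 0.129). Scap, the SREBP carrier gene, was at -0.35 (limma adjusted p = 0.0731), and Mbtps2, the site-2 protease gene, at -0.20 (limma adjusted p = 0.189). Insig2, the paralogue of Insig1, was at -0.14, and Srebf1, the gene of the related factor SREBP1, at -0.36 (limma adjusted p = 0.279 and 0.138). All 7 regulator genes beyond the members had values below 0 on TPM, and 2 passed as lower, where 85.5% of all genes lay below 0 and 23.9% passed as lower. After scaling Insig2 and Nr1h3, the gene of LXR alpha, lay above 0, at 0.16 and 0.01. Of the 7, 0 passed after scaling (2 at an unadjusted limma p under 0.05, where 30.4% of all genes were).

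Of the 6 tested uptake and transport genes, which lay at -0.40 to -0.09, 0 passed (2 at an unadjusted limma p under 0.05, where 49.1% of all genes were). Npc1, a lysosomal cholesterol exporter gene with the smallest p, averaged 0.849 ± 0.303 TPM in weight-cycled and 1.35 ± 0.198 TPM in obese islets (SD, n = 4 each). It reached the filter of 1 TPM only through its level in obese islets, so its difference is no independent support. Its log2 fold change was -0.35 (limma adjusted p = 0.0563), and -0.19 after scaling (limma adjusted p = 0.191). It was called without weight-cycled replicate 1 (-0.46, limma adjusted p = 0.00319), where 54.4% of all genes were called lower.

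In the esterification and efflux list, Apoe, the apolipoprotein E gene, had 26.2, 14.1, 19.9 and 11.2 TPM in weight-cycled replicates 1 to 4, against 55.1, 47.3, 30.1 and 37.8 TPM in obese replicates 1 to 4. All weight-cycled libraries were below all obese ones, and the log2 fold change was -1.24 (SE 0.237, limma adjusted p = 0.0265), or -0.92 after scaling (limma adjusted p = 0.0469). On TPM the call was lost when obese replicate 1 or 2, or weight-cycled replicate 2 or 4, was left out (limma adjusted p = 0.0733 to 0.108). After scaling it held without weight-cycled replicate 1 (limma adjusted p = 0.00487), where 17.9% of all genes were called lower. The scaled call was lost without any other library (limma adjusted p = 0.0675 to 0.139). Abca1, the cholesterol efflux transporter gene and an LXR target, had 2.52, 0.940, 0.908 and 0.857 TPM in weight-cycled replicates 1 to 4, against 2.38, 2.59, 2.01 and 2.33 TPM in obese replicates 1 to 4. Weight-cycled replicate 1 was among the obese libraries and the other 3 far below (log2 fold change -0.58, SE 0.187, limma adjusted p = 0.0447, and -0.39 after scaling, limma adjusted p = 0.134). With the trend with transcript length removed it was -0.13 (limma adjusted p = 0.440). Without weight-cycled replicate 1 it was at -0.80 (limma adjusted p = 0.000705), where 54.4% of all genes were called lower. The Abca1 call was lost without any other single library (limma adjusted p = 0.0620 to 0.123). Soat1, the esterifying enzyme gene, and Abcg1, another efflux gene, did not pass.
Apoe and Abca1 are also expressed by macrophages, and the 5 macrophage markers Adgre1, Cd68, Csf1r, Lyz2 and Tyrobp summed to 5.01 to 8.30 TPM in weight-cycled and 8.48 to 11.3 TPM in obese libraries. Of these, Lyz2 and Tyrobp were tested and lower, and 3 were below the filter. The 5 endothelial markers Pecam1, Cdh5, Kdr, Plvap and Esm1 summed to 24.3 to 50.3 TPM in weight-cycled and 44.3 to 71.4 TPM in obese libraries, with Kdr and Esm1 lower. Acinar markers summed to 0.246% to 0.602% of TPM in weight-cycled and 0.204% to 0.377% in obese libraries, and 0 of the 6 tested passed. The part of these cells in the values of Apoe, Abca1 or Srebf2 was not tested. Adipoq and Lep were listed at 0 in every library, and the 4 adipocyte markers summed to 5.3 to 11.3 TPM in weight-cycled and 6.6 to 10.6 TPM in obese libraries. Stromal markers summed to at most 2.71 TPM in weight-cycled and 2.73 TPM in obese libraries. Duct markers, 4 in all, summed to 0.00316% to 0.005% of TPM in weight-cycled and 0.00347% to 0.0044% in obese libraries. Of the 2 tested, Krt7 was lower (log2 fold change -0.42, limma adjusted p = 0.0382). Spp1 went the other way and did not pass (0.52, limma adjusted p = 0.0615). The 4 nerve and Schwann markers summed to 3.94 to 6.14 TPM in weight-cycled and 4.93 to 6.09 TPM in obese libraries.

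**Figure D3:**
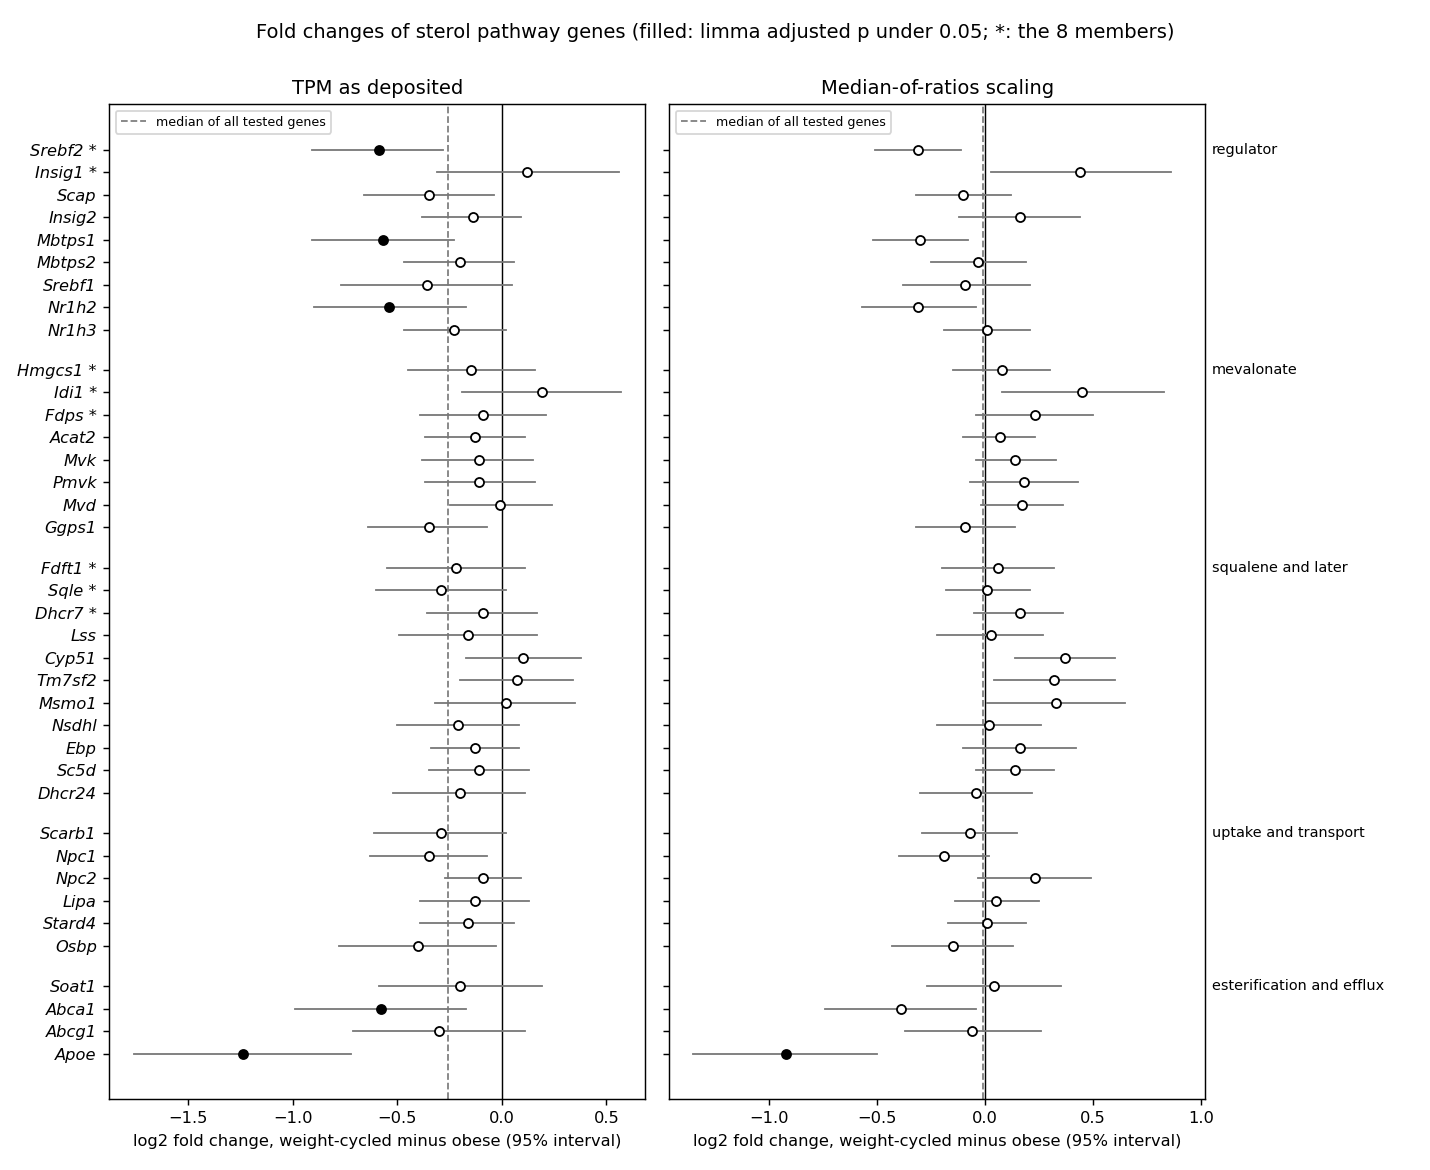
log2 fold changes on log2(TPM + 1), weight-cycled minus obese, with 95% intervals, for the 8 members (starred) and the 30 tested pathway genes in order of role, on TPM as deposited (left) and after median-of-ratios scaling (right). Filled points passed a limma adjusted p of 0.05: Srebf2, Mbtps1, Nr1h2, Abca1 and Apoe on the left and Apoe on the right, while the dashed line, the median of all genes, stood at -0.26 on the left and -0.01 on the right.

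Members were also set beside the other tested genes, leaving out 271 predicted gene models, by the likeness of their pattern over the 8 libraries, measured as the root mean square difference of the deviations from each gene's own mean on log2(TPM + 1). Among 7855 genes, the nearest to Insig1 were Cyp51, the lanosterol demethylase gene, at 0.179, Tmem63a at 0.180 and Mfsd11 at 0.188. Cyp51 was also the nearest after median-of-ratios scaling, at 0.176. Cyp51 had 4.84, 3.90, 5.20 and 3.28 TPM in weight-cycled replicates 1 to 4 and 3.65, 4.24, 3.84 and 3.83 TPM in obese replicates 1 to 4, highest in weight-cycled replicates 1 and 3 and lowest in replicate 4, as Insig1 was. The nearest to Srebf2 were B3galt5 at 0.0581, Grk5 at 0.0649 and Cdhr1 at 0.0688, and the nearest other member, Sqle at 0.175, came at rank 1824. For Sqle the nearest other member came at rank 2670, for Fdft1 at 377, for Hmgcs1 at 348 and for Dhcr7 at 318. For Fdps it came at 160, for Insig1 at 37 and for Idi1 at 7. Ranks do not compare directly between members, as 0.175 was rank 1824 for Srebf2 while 0.179 was the nearest of all for Insig1.

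**Figure D4:**
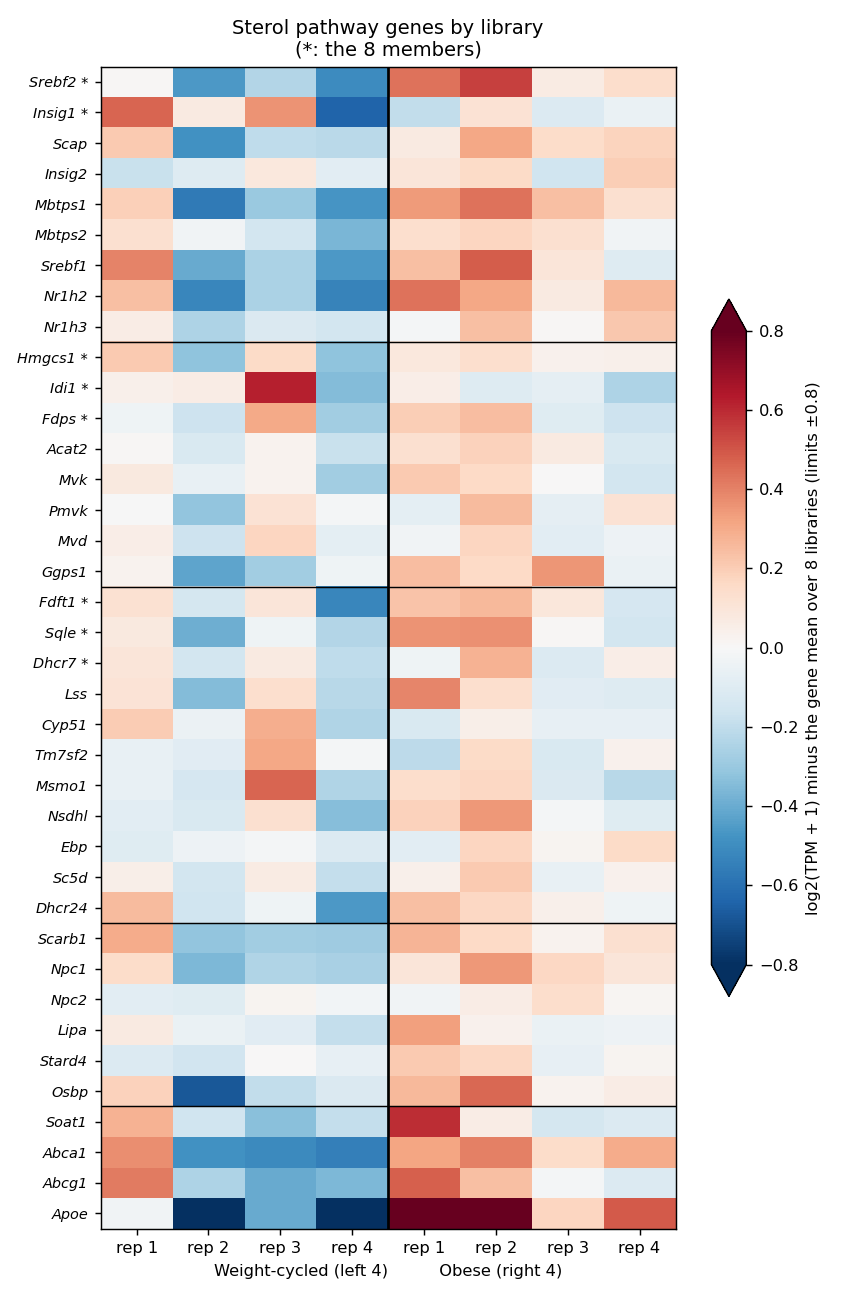
Deviation of each gene's log2(TPM + 1) from its mean over the 8 libraries, weight-cycled replicates on the left and obese replicates on the right, for the 8 members (starred) and 30 pathway genes grouped by role. Weight-cycled replicate 4 is below the mean for every gene shown, and weight-cycled replicate 2 for every gene but Insig1 and Idi1. Their median-of-ratios factors over all tested genes were 0.844 and 0.784, against 0.908 to 1.22 in the other libraries. Weight-cycled replicate 3 is high for Idi1 (6.97 TPM) and Msmo1 (24.4 TPM).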

How the data were processed

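RNA abundance was analysed in 8 islet libraries, 4 weight-cycled and 4 obese. The authors deposited gene-level TPM, and the submitters' processing notes name Salmon 1.5.2 and mm10. Neither the annotation nor the way transcripts became genes is given in the sources used here. Columns summed to 999930 to 999949, so depth is unknown. Symbols were matched for 35527 of 35596 IDs, and coordinates and transcript lengths were read from GENCODE M21 (GRCm38, the same assembly as mm10).

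The test was limma 3.58.1 (R 4.3.3, eBayes with a variance trend), run for genes with a mean of at least 1 TPM on log2(TPM + 1). Tests were two-sided, and p-values were adjusted by Benjamini-Hochberg over all 8127 genes, with a threshold of 0.05. A fold change on this scale, weight-cycled minus obese, understates the change of low genes. The fit was tested on simulated data. Within-library ratios were compared by exact permutation. The members and lists were chosen with earlier results of these data known. Named were all members, every pathway gene past the threshold, the smallest p of each sub-list and the 3 genes most like Insig1 and Srebf2. Some genes of the pathway list and of the naming rule are not reported here, and its counts are without them. Acat2, Mvk, Pmvk, Mvd, Scap, Mbtps2, Insig2, Srebf1, Nr1h3, Soat1, Abcg1, Cyp51, Msmo1, Tm7sf2, Npc2 and Sc5d were named after their values were seen. Alternatives were other pseudocounts, filters, scalings, variance models, weights, the replicate number as a block and leaving out each library. No count model was used on TPM.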

Additional observations from a re-analysis of the deposited data

Results flagged for a closer look

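In 46 groups of 4 values, the highest or lowest library was compared with its nearest neighbour by Dixon's ratio, and 3 groups passed where chance flags about 1 in 20, or 2.3. Weight-cycled replicate 1 had 2.52 TPM of Abca1, while the other 3 weight-cycled libraries had 0.857 to 0.940 TPM and obese libraries 2.01 to 2.59 TPM. The same library had a log2 ratio of Srebf2 to Dhcr7 of 0.92, and the other weight-cycled ones 0.68 to 0.71. In obese replicate 2 the log2 ratio of Idi1 to Fdft1 was -0.93, and the other obese ones had -0.71 to -0.66.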

How the results depend on the processing

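Pseudocounts of 0.1 and 5 and an untrended prior variance left 1 member lower and 0 higher. Without a filter, limma called 0 members, 0 pathway genes and 0 genes higher or lower over 19482 genes (5686 at an unadjusted p under 0.05). With a filter at 5 TPM, 1001 of 3480 genes and 2 of 8 pathway genes were lower. Median-of-ratios scaling gave 101 higher and 46 lower genes, 1 lower pathway gene and 0 lower members (3 at an unadjusted p under 0.05), quantile scaling 173 higher and 124 lower genes, 1 lower pathway gene and 0 lower members, and length correction 145 higher and 124 lower genes, 1 lower pathway gene and 0 lower members. Array weights gave 296 higher and 4499 lower genes, 3.64% and 55.4% of all, with 3 higher and 14 lower pathway genes. With these weights 1 member was higher, Idi1 at 0.58, and 1 lower, Srebf2 at -0.50 (limma adjusted p = 0.00523 and 0.00198). The cause of these changes was not tested. Leaving out each library gave 0 to 270 genes higher and 0 to 4390 lower, 0 to 2 members lower and 0 to 14 pathway genes lower. After scaling the ranges were 0 to 1609 and 0 to 1444 genes, 0 to 1 member higher, 0 to 1 lower, 0 to 4 pathway genes higher and 0 to 5 lower, the highest of each without weight-cycled replicate 1.

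Srebf2 lay below 0 in all 26 alternatives, at -0.69 to -0.25, and passed in 9. Apoe (-1.44 to -0.76 over 26, past in 14) and Mbtps1 (-0.73 to -0.21 over 26, past in 9) were also below 0 throughout. So were, over 25, Nr1h2 (-0.73 to -0.23, past in 7), Abca1 (-0.93 to -0.13, past in 7) and Ggps1 (-0.48 to -0.01, past in 3). Idi1 was above 0 throughout (0.01 to 0.59 over 25, past in 2). The sign of 6 members (all but Srebf2 and Idi1) and of Nsdhl and Npc1 changed in some alternatives, and 0 of the changed values were past the threshold. Median-of-ratios scaling put Hmgcs1 at 0.076, Fdps at 0.23, Fdft1 at 0.06, Sqle at 0.012, Dhcr7 at 0.16 and the pathway gene Nsdhl at 0.022. Quantile scaling put Hmgcs1 at 0.13, Fdps at 0.08, Fdft1 at 0.039, Dhcr7 at 0.19 and Nsdhl at 0.072. Length correction put Hmgcs1 at 0.17, Fdps at 0.056, Fdft1 at 0.099, Dhcr7 at 0.068, Nsdhl at 0.058 and Npc1 at 0.031. Array weights put Hmgcs1 at 0.022, Fdps at 0.20 and Dhcr7 at 0.018. Over the fits that left out a library, Insig1 was at -0.010 to 0.36 on TPM, the lowest without weight-cycled replicate 1, and at 0.36 to 0.66 with scaling. With scaling, those ranges were 0.007 to 0.15 for Hmgcs1, 0.13 to 0.30 for Fdps, 0 to 0.18 for Fdft1, -0.044 to 0.058 for Sqle, 0.099 to 0.21 for Dhcr7 and -0.048 to 0.090 for Nsdhl. On TPM they were -0.24 to -0.062 for Hmgcs1, -0.20 to -0.012 for Fdps, -0.30 to -0.085 for Fdft1, -0.39 to -0.21 for Sqle, -0.14 to -0.013 for Dhcr7 and -0.29 to -0.13 for Nsdhl.

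No label states that same-numbered libraries of the 2 groups are paired, and whether they share a batch was not tested. Their deviations correlated at 0.210, -0.276, -0.0522 and 0.231 for replicates 1 to 4. Obese replicates 1 and 4 correlated best with the weight-cycled library of the same number, and replicates 2 and 3 with another. With the replicate number as a block, 149 genes were higher and 2754 lower (33.9%), against 98 and 1946 without it. With the block, 1 member and 4 pathway genes were lower.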

Other observations

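The same search for genes of like pattern was run for the other members, and the genes named here were chosen after their values were seen. The nearest to Idi1 was Msmo1, a sterol C4-methyl oxidase gene, at a root mean square difference of 0.144, with Cyp51 at rank 3, at 0.175. The nearest to Fdps was also Msmo1, at 0.0738, with Nsdhl, a gene of the same demethylation steps, at rank 3, at 0.0876. The nearest to Dhcr7 was Sc5d, the gene of the enzyme before it, at 0.0440. In all, 6 of the 24 nearest places (3 for each member) were held by 4 genes of the members and the pathway list, Cyp51, Msmo1, Nsdhl and Sc5d. The 37 tested genes of these lists other than the member itself make up 0.471% of the genes searched. After median-of-ratios scaling the count was also 6 places and 4 genes. For Srebf2, Hmgcs1, Fdft1 and Sqle it was 0 of 3 on TPM. The genes of a library share its scaling and composition, and the likeness is a description of these 8 libraries. Msmo1 had 16.6, 15.8, 24.4 and 14.6 TPM in weight-cycled replicates 1 to 4 and 19.3, 19.6, 16.02 and 14.8 TPM in obese replicates 1 to 4, high in weight-cycled replicate 3 as Idi1 and Fdps were.

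After median-of-ratios scaling 10 of the 38 genes had an unadjusted limma p under 0.05, where 30.4% of all genes did. Below 0 were Srebf2, Mbtps1, Nr1h2, Abca1 and Apoe, with Apoe past the adjusted threshold. The other 5 lay above 0 and did not pass after adjustment. These were Cyp51 at 0.37 (limma adjusted p = 0.0757), Idi1 at 0.45 (0.116), Tm7sf2, a sterol reductase gene, at 0.32 (0.128), Insig1 at 0.44 (0.149) and Msmo1 at 0.33 (0.152). On TPM they lay at 0.10, 0.19, 0.07, 0.12 and 0.02. With weight-cycled replicate 1 also left out, Cyp51 (0.38), Tm7sf2 (0.41), Msmo1 (0.43), Idi1 (0.54) and Npc2, the gene of a lysosomal cholesterol carrier (0.32), passed as higher (limma adjusted p = 0.0195 to 0.0358), and Srebf2, Mbtps1, Nr1h2, Npc1, Abca1 and Apoe passed as lower (0.00370 to 0.0287). These were 11 of the 38 genes, where 37.9% of all genes were called in that fit.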
